A study of Mus musculus with 18 samples.

Results

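Macrophages take up, store, recycle and release iron, and their RNA for 10 genes of this machinery was followed here over 3 genotypes with and without lipopolysaccharide (LPS), the endotoxin of Gram-negative bacteria. The genes were taken by symbol, 10 of the 38887 genes in the data. They are the ferritin chains Fth1 and Ftl1, the iron exporter Slc40a1, the importers Tfrc, Slc11a2 and Slc11a1, the siderophore-binding protein Lcn2, the iron regulatory proteins Aco1 and Ireb2, and the ferritin cargo receptor Ncoa4. All 10 were expressed and passed the filter on low counts in every comparison, with a lowest count of 21 for Lcn2 in 1 library.

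Bone marrow-derived macrophages (BMMs) of adult female C57BL/6J mice were grown for 6 days with 50 ng/ml M-CSF, and cells of each genotype were sequenced untreated and after LPS (100 ng/ml for 4 h), with 3 libraries in each of the 6 groups and 18 in all. Per the methods, the animals called WT expressed Cre recombinase from the Lyz2 locus. GILZ KO animals carried the same Cre and lost loxP-flanked exon 6 of Tsc22d3, the gene of the glucocorticoid-induced leucine zipper (GILZ). In GILZ TG animals the same Cre removed a stop cassette in front of a Tsc22d3 cDNA at ROSA26, so that overexpression depends on Lyz2-driven Cre in myeloid cells. All 3 genotypes thus carry Cre by description, and there was no group without it.

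A pair of genes served to check the labels. Tsc22d3 was at 14.9 to 18.8 TPM in untreated WT, 1.89 to 2.81 TPM in GILZ KO and 152 to 160 TPM in GILZ TG, where TPM is a level scaled by transcript length and by the library total. With LPS it was at 4.56 to 5.81 TPM in WT, up to 3.28 TPM in GILZ KO and 127 to 141 TPM in GILZ TG. GILZ KO and WT were thus much closer with LPS, though without overlap (log2 fold change -0.69). This was not called by edgeR (adjusted p = 0.150) but was called by DESeq2 (adjusted p = 0.00605). The check is therefore weaker for the LPS libraries of GILZ KO. Lyz2 did not match the description, with 6766 to 15401 TPM in the 6 WT libraries and 17.2 to 70.3 TPM in the 12 libraries of GILZ KO and GILZ TG. Differences from WT can therefore not be told apart from differences in the Lyz2 locus. The 7 macrophage markers summed to 3825 to 5021 TPM in all libraries, and the erythroid markers to at most 1.37 TPM. GILZ TG libraries 1 and 2 of both conditions stood apart, with summed neutrophil lineage, B cell and stromal markers above the sums of the other libraries. GILZ TG library 3 was also slightly above all WT and GILZ KO libraries in neutrophil sums, at 88.5 TPM untreated (others at most 80.5) and 98.9 TPM with LPS (others at most 89.9). The same held for B cell sums but not for stromal sums. Values without GILZ TG libraries 1 and 2 were added after seeing the data and rest on 1 GILZ TG library per condition. It is assumed to vary like the other groups, so that the p-values of these fits carry little weight. The total count per library was between 14583055 and 38557029.

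In iron-loaded cells ferritin, a shell of heavy (Fth1) and light (Ftl1) chains, holds iron that Ncoa4 delivers to lysosomes when it is needed again. Ferroportin (Slc40a1) is the only known exporter of iron from mammalian cells, while the transferrin receptor (Tfrc) brings iron in by endocytosis and Slc11a2 and Slc11a1 move it out of endosomes and phagosomes. When iron is scarce, the iron regulatory proteins Aco1 and Ireb2 bind a stem-loop in the untranslated regions of these mRNAs, the iron-responsive element, which blocks translation when it lies in front of the coding sequence and protects the mRNA when it lies behind it.

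The stem-loops of these mRNAs are shown first because ferritin, Slc40a1 and Tfrc, which store, release and import iron, share them. A search of the untranslated regions in the GENCODE transcripts on the sense strand for an unpaired C, a stem of 5 base pairs (G with T counted as a pair) and the loop CAGTGN between its strands found 7 elements in 4 of the 10 genes. Of 21901 coding genes, 0.142% held such an element in a 5′ UTR and 0.589% in a 3′ UTR. The loop is in capitals, and each is 27 bases long.
Fth1, 5′ UTR, chr19:9982733-9982759, plus strand: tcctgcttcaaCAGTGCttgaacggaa
Ftl1, 5′ UTR, chr7:45459780-45459806, minus strand: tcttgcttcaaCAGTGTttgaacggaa
Slc40a1, 5′ UTR, chr1:45925466-45925492, minus strand: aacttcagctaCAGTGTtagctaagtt
Tfrc, 3′ UTR, chr16:32631220-32631246, plus strand: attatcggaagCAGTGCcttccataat
Tfrc, 3′ UTR, chr16:32631599-32631625, plus strand: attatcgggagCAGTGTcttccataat
Tfrc, 3′ UTR, chr16:32631664-32631690, plus strand: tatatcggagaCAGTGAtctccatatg
Tfrc, 3′ UTR, chr16:32631711-32631737, plus strand: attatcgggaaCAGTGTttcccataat
The coordinates are of GRCm38. The ferritin chains, which store iron, and the exporter each had 1 match in front of the coding sequence, and Tfrc had 4 behind it. Slc11a2, Slc11a1, Lcn2, Ireb2, Aco1 and Ncoa4 had no match to these letters. The search allowed no bulge or mismatch in the stem and can miss elements of another shape. A gene without a match may therefore still hold an element.

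With LPS, Slc40a1 fell and Slc11a2 and Lcn2 rose in all 3 genotypes, on TMM-normalized counts and on TPM. The ferritin chains parted, with Ftl1 lower relative to Fth1 in every LPS library. In WT, 4 of the 10 genes rose and 2 fell at an adjusted p under 0.05 (edgeR, 18 libraries in one fit, TMM-normalized counts), where 33.5% of all genes rose and 35.1% fell. In GILZ KO 4 rose and 3 fell, with 33.2% and 35.4% of all genes, and in GILZ TG 4 rose and 2 fell, with 33.6% and 35.1%. The number called among the 10 genes is thus close to the share among all genes, and the results lie in which gene moved and how far. The median of the 10 log2 fold changes was 0.06 in WT, 0.07 in GILZ KO and 0.01 in GILZ TG, against -0.02 over all genes in each.

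**Figure D1:**
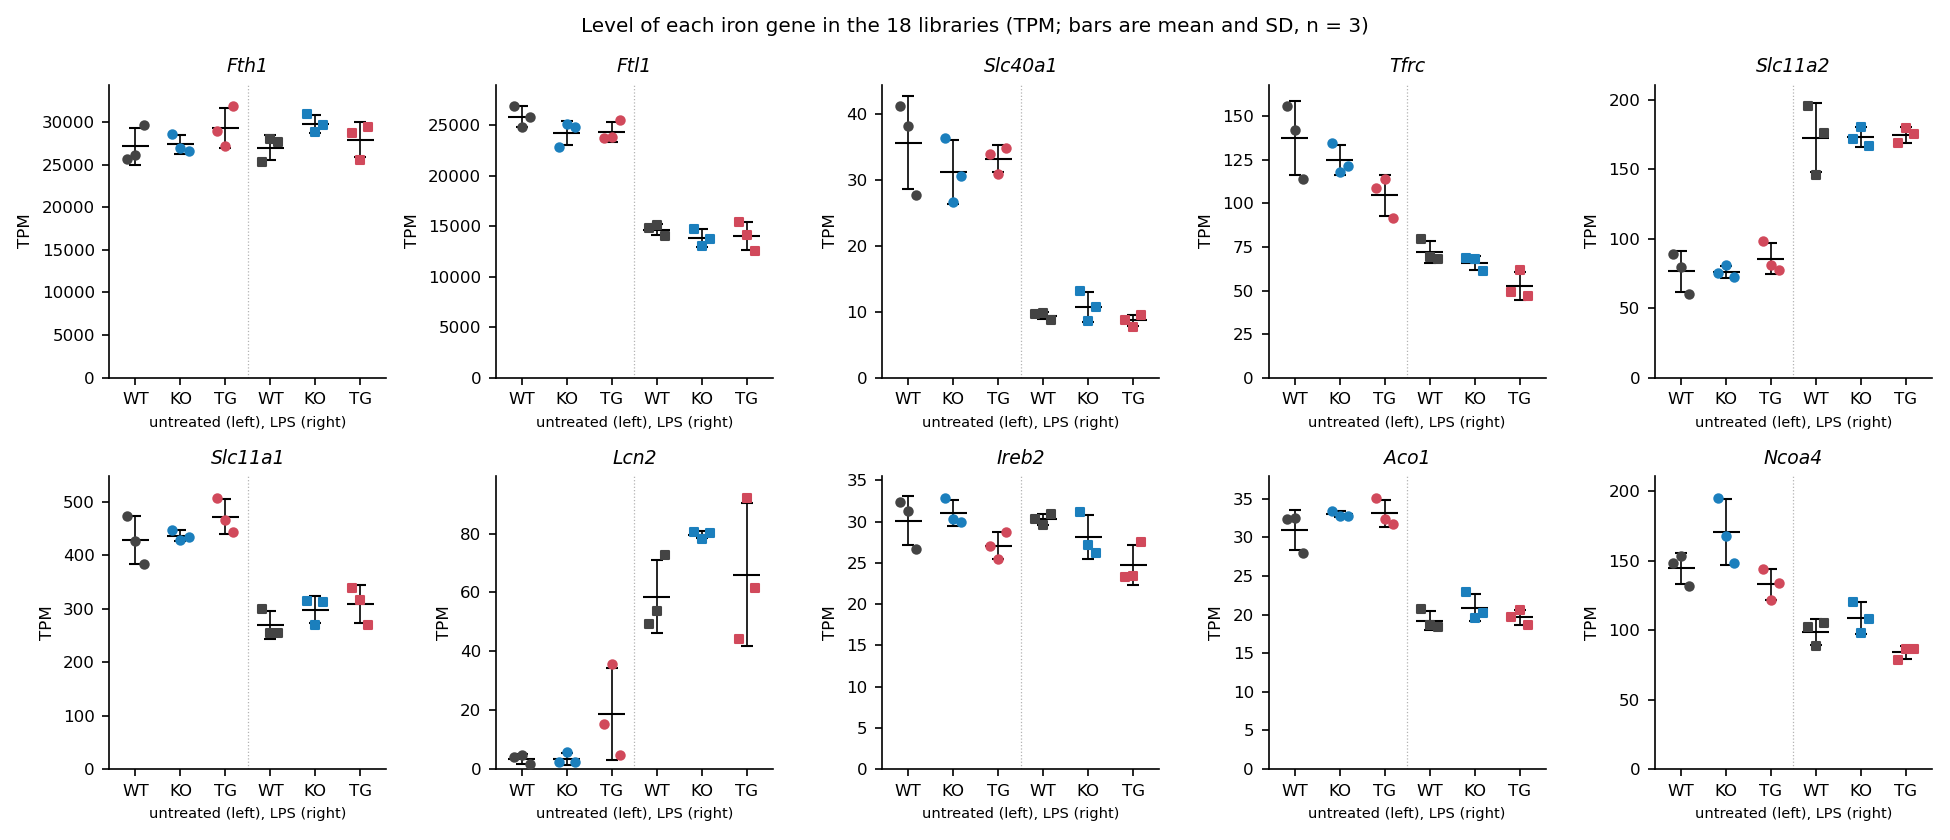
Level of each of the 10 genes in TPM (vertical axes, from 0) in the 3 libraries of each group, untreated as circles on the left and LPS as squares on the right of the dotted line, with mean and SD. Slc40a1, Tfrc, Ftl1, Slc11a1, Aco1 and Ncoa4 lay lower in all LPS libraries than in the untreated libraries of the same genotype, and Slc11a2 and Lcn2 lay higher.

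The scale matters for the size of these changes. On log2(TPM + 1) the median of all genes fell by 0.51 in WT, 0.52 in GILZ KO and 0.51 in GILZ TG with LPS, and of the genes called in WT 19.8% were higher, against 48.9% on TMM-normalized counts. Log2 fold changes below are those of TMM-normalized counts, LPS minus untreated, and the value on the TPM scale is given where its direction or call differs. In TPM, 2 of the 10 genes had all LPS libraries above all untreated ones in WT and 6 had all below, in a comparison where 81.2% of all genes did not overlap. The numbers were 3 and 6 in GILZ KO (83.7%) and 2 and 6 in GILZ TG (80.9%).

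**Figure D2:**
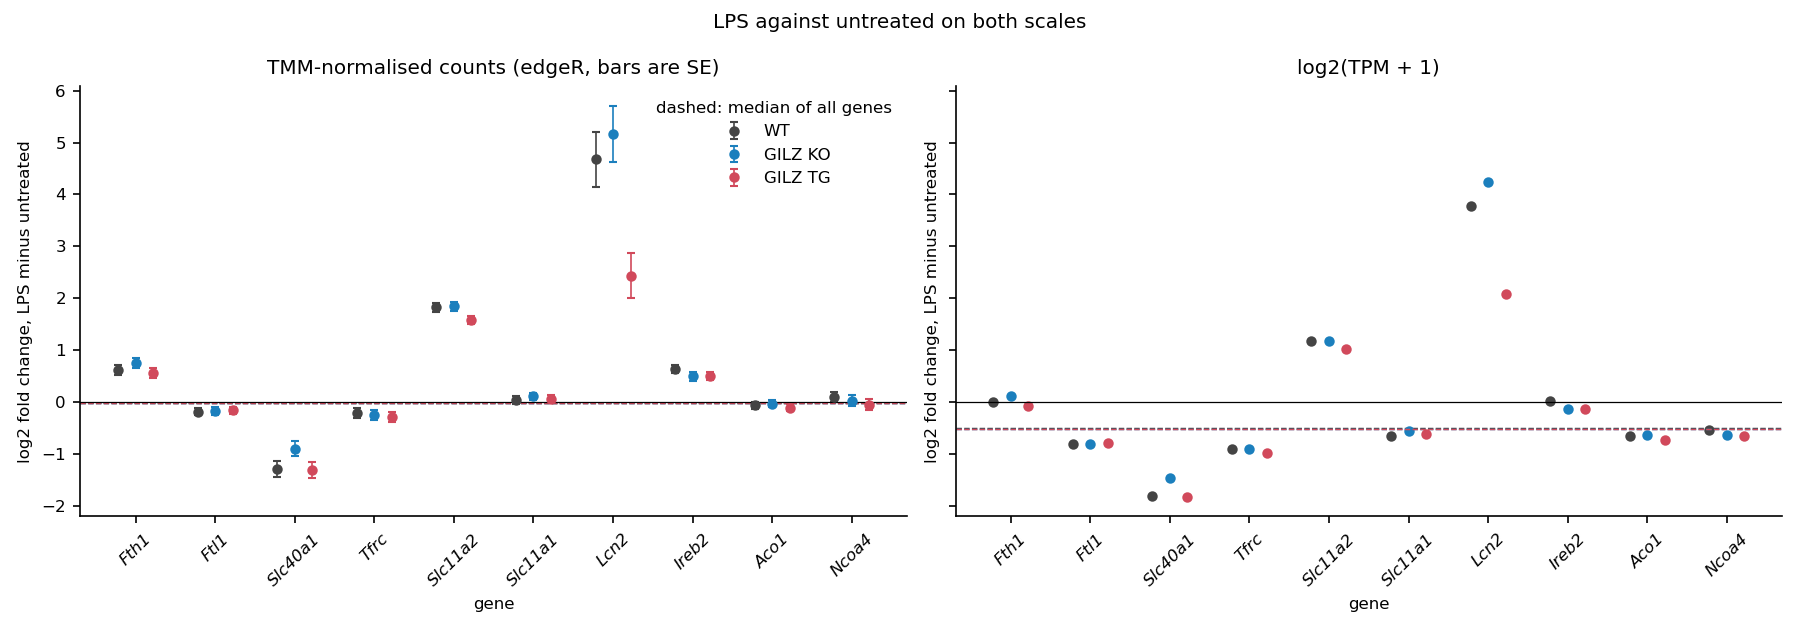
Log2 fold change of LPS against untreated (vertical axis) of each gene in WT, GILZ KO and GILZ TG, from TMM-normalized counts with standard errors on the left and from log2(TPM + 1) on the right, with the median of all genes dashed. The dashed lines lie at -0.02 on the left and between -0.52 and -0.51 on the right, and Fth1 and Ireb2 are above 0 on the left only, apart from Fth1 in GILZ KO and Ireb2 in WT.

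The ferritin chains were among the most abundant mRNAs, with 1.07% to 1.45% of all counts for Fth1 and 0.614% to 1.36% for Ftl1. Fth1, the chain with ferroxidase activity (ENSMUSG00000024661, chr19:9980598-9985098), was at 25605, 26154 and 29596 TPM in untreated WT and at 25264, 27994 and 27621 TPM after LPS. Over all 18 libraries it stayed between 25264 and 31841 TPM, and untreated and LPS libraries of WT and GILZ TG overlapped. With LPS the log2 fold change was 0.62 (SE 0.09, adjusted p = 1.36e-05) in WT, 0.76 (SE 0.09, adjusted p = 1.39e-06) in GILZ KO and 0.56 (SE 0.09, adjusted p = 3.92e-05) in GILZ TG by edgeR, whereas log2(TPM + 1) gave -0.01, 0.12 and -0.07, none of them called. Relative to the median of all genes on the TPM scale these were 0.50, 0.64 and 0.44.

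Ftl1, the chain that favours mineralization of iron in the shell (ENSMUSG00000050708, chr7:45457944-45459884), was at 26902, 24826 and 25833 TPM in untreated WT and at 14876, 15084 and 14015 TPM with LPS. In GILZ KO it went from 22907, 25090 and 24840 TPM to 14761, 13017 and 13726 TPM, and in GILZ TG from 23708, 23885 and 25487 TPM to 15379, 14182 and 12582 TPM. No LPS library reached the lowest untreated one. On TMM-normalized counts the difference was small, with -0.19 in WT (SE 0.07, adjusted p = 0.0298), -0.18 in GILZ KO (adjusted p = 0.0378) and -0.16 in GILZ TG (adjusted p = 0.0542, which misses the threshold). On log2(TPM + 1) it was -0.82, -0.81 and -0.80, with adjusted p = 2.57e-07, 2.75e-07 and 3.44e-07 by limma. The call in WT was lost without LPS library 3 (adjusted p = 0.123) and that in GILZ KO without untreated library 2 or 3 or LPS library 2 or 3 (adjusted p = 0.066 to 0.131). In GILZ TG the call was reached without untreated library 1 or 2 or LPS library 1 (adjusted p = 0.0389, 0.0411 and 0.00938). DESeq2 called Ftl1 in WT only (adjusted p = 0.0266), with adjusted p = 0.0504 in GILZ KO and 0.0636 in GILZ TG.

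The ratio of Fth1 to Ftl1 within a library does not depend on the scaling. It was 0.952, 1.05 and 1.15 in untreated WT and 1.70, 1.86 and 1.97 after LPS. Over the genotypes it lay between 0.952 and 1.25 in the 9 untreated libraries and between 1.70 and 2.33 in the 9 LPS libraries, so that the heavy chain was relatively more abundant in each LPS library. Counts of both chains were not whole in any of the 18 libraries, as for genes whose reads are divided among copies, and are uncertain by that share. Of 13 genes with symbols of ferritin copies or pseudogenes, 8 were at 0 in all libraries, and the highest, Ftl1-ps1, was at 55.2 to 181 TPM.

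Slc40a1, or ferroportin (ENSMUSG00000025993, chr1:45908068-45926523), fell in every genotype. In WT it went from 41.1, 38.1 and 27.6 TPM untreated to 9.57, 9.80 and 8.73 TPM with LPS. In GILZ KO it went from 36.4, 26.7 and 30.5 TPM to 13.1, 8.51 and 10.6 TPM, and in GILZ TG from 34.0, 30.9 and 34.7 TPM to 8.79, 7.68 and 9.48 TPM. The highest LPS library, at 13.1 TPM, lay below the lowest untreated library, at 26.7 TPM. By edgeR the log2 fold change was -1.29 in WT (SE 0.15, adjusted p = 5.90e-07), -0.90 in GILZ KO (SE 0.15, adjusted p = 4.80e-05) and -1.31 in GILZ TG (SE 0.15, adjusted p = 5.08e-07). The LPS response of GILZ KO differed from that of WT by 0.40 (95% interval -0.02 to 0.81, adjusted p = 0.829 by edgeR), so that a weaker fall in GILZ KO was not shown. Here and below, 95% intervals were taken from the SE by the normal approximation, which makes them too narrow for 3 libraries per group.

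Tfrc, the transferrin receptor (ENSMUSG00000022797, chr16:32608920-32632794), was at 156, 142 and 114 TPM in untreated WT and at 79.4, 69.5 and 67.9 TPM with LPS. The same held in GILZ KO, from 135, 118 and 122 TPM to 68.6, 68.2 and 61.3 TPM, and in GILZ TG, from 109, 114 and 91.6 TPM to 48.9, 61.6 and 47.1 TPM. Untreated and LPS libraries did not overlap in any genotype. The log2 fold change was -0.21 in WT (adjusted p = 0.0672), -0.25 in GILZ KO (adjusted p = 0.0360) and -0.29 in GILZ TG (adjusted p = 0.0156) by edgeR, so that the fall was called in GILZ KO and GILZ TG by this fit. With a replicate block it was also called in WT (-0.21, adjusted p = 0.00107), and on log2(TPM + 1) it was -0.91, -0.91 and -0.99 and called in each. DESeq2 called the fall of Tfrc in GILZ TG only (adjusted p = 0.0190), with adjusted p = 0.0980 in WT and 0.0603 in GILZ KO. The responses were not shown to differ between genotypes (-0.08 for GILZ TG against WT, 95% interval -0.36 to 0.20). Single libraries decided these calls: that in WT was reached without untreated library 3 or LPS library 1 (adjusted p = 0.00478 and 0.0159), that in GILZ KO was lost without any of 5 libraries (adjusted p = 0.0538 to 0.102), and that in GILZ TG was lost without untreated library 2 or LPS library 3 (adjusted p = 0.0556 and 0.0657) and without libraries 1 and 2 of both conditions (adjusted p = 0.255, 1 library against 1).

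Slc11a2, the divalent metal transporter of endosomes (ENSMUSG00000023030, chr15:100387898-100425072), rose in every genotype. It was at 89.3, 79.6 and 60.5 TPM in untreated WT and at 195, 146 and 176 TPM with LPS. GILZ KO went from 75.0, 81.1 and 72.1 TPM to 172, 181 and 167 TPM, and GILZ TG from 98.2, 81.2 and 77.0 TPM to 168, 180 and 175 TPM. The lowest LPS library, at 146 TPM, was above the highest untreated one. This corresponded to a log2 fold change of 1.82 in WT (SE 0.08, adjusted p = 2.58e-12), 1.85 in GILZ KO (SE 0.08, adjusted p = 2.64e-12) and 1.58 in GILZ TG (SE 0.08, adjusted p = 1.75e-11) by edgeR.

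Slc11a1, the related transporter of phagosomes also known as Nramp1 (ENSMUSG00000026177, chr1:74375195-74386062), was the more abundant of the pair. C57BL/6 mice carry an allele whose protein has lost its function, so its mRNA level says nothing on transport here. It was at 473, 428 and 384 TPM in untreated WT and at 300.04, 256 and 255 TPM with LPS, and the untreated and LPS libraries did not overlap in any genotype. On TMM-normalized counts the log2 fold change was 0.04 in WT, 0.11 in GILZ KO and 0.07 in GILZ TG, none of them called, while on log2(TPM + 1) the direction was the opposite, with -0.66, -0.55 and -0.62 (adjusted p = 8.70e-06, 5.92e-05 and 1.86e-05 by limma). Relative to the median of all genes on that scale the values were -0.15, -0.03 and -0.11.

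The ratio of Slc11a2 to Slc11a1 rose from between 0.158 and 0.193 in the untreated libraries to between 0.497 and 0.691 in the LPS libraries. That of Tfrc to Slc40a1, the main importer over the exporter, lay between 2.64 and 4.43 untreated and between 4.97 and 8.29 with LPS. Both ratios separated the 9 untreated from the 9 LPS libraries with no overlap. These ratios describe unequal changes of 2 genes and not which gene changed.

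**Figure D3:**
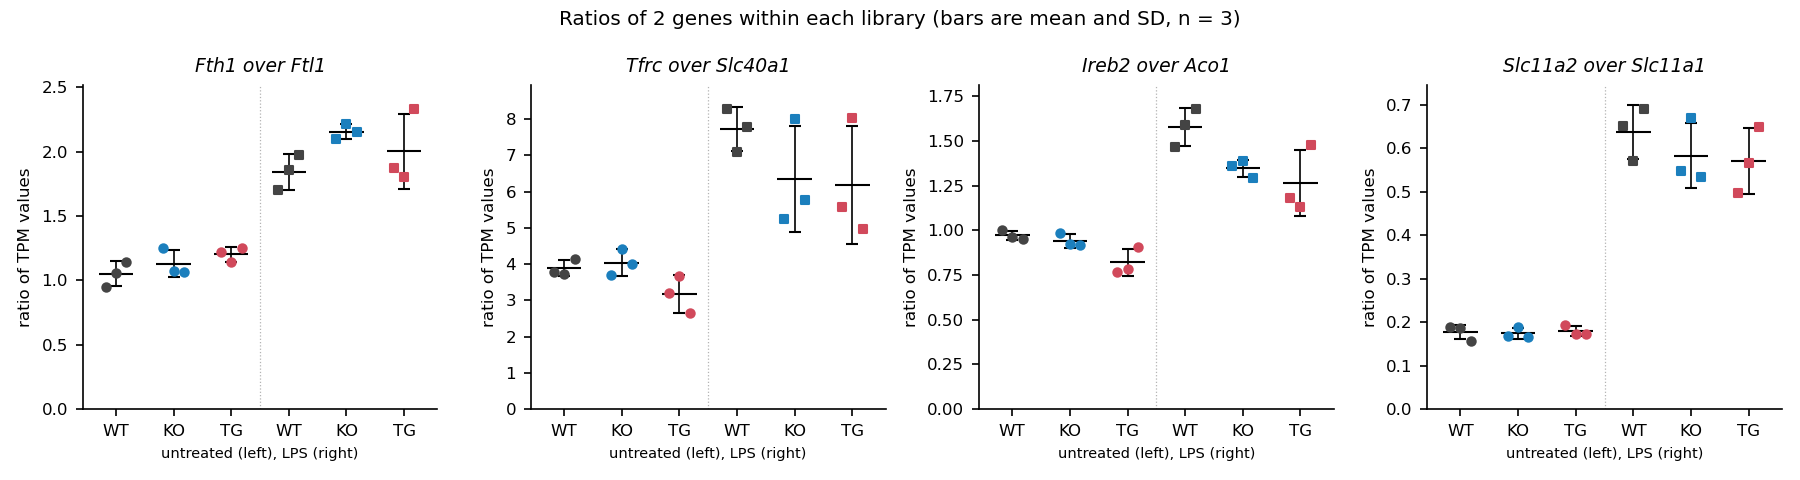
Ratios of TPM values of 2 genes within each library (vertical axes, from 0), by genotype, untreated as circles on the left and LPS as squares on the right, with mean and SD of 3 libraries. All 9 LPS libraries lie above all 9 untreated libraries in each of the 4 ratios, with Fth1 over Ftl1 up to 1.25 untreated and from 1.70 with LPS.

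Lcn2, or lipocalin 2, withholds iron from bacteria by binding their siderophores (ENSMUSG00000026822, chr2:32384633-32388252). It was at 4.18, 4.71 and 1.66 TPM in untreated WT and at 49.1, 53.8 and 72.7 TPM with LPS. In GILZ KO it went from 2.32, 5.79 and 2.45 TPM to 80.7, 78.2 and 80.0 TPM. In GILZ TG it went from 15.3, 35.8 and 4.93 TPM to 44.1, 92.2 and 61.7 TPM. All LPS libraries were above all untreated ones, and the untreated GILZ TG libraries differed most among themselves. The log2 fold change was 4.68 in WT (SE 0.52, adjusted p = 4.35e-07), 5.17 in GILZ KO (SE 0.55, adjusted p = 2.13e-07) and 2.43 in GILZ TG (SE 0.43, adjusted p = 9.02e-05) by edgeR, which is 25.6-fold, 35.9-fold and 5.39-fold. Without GILZ TG libraries 1 and 2 the value in GILZ TG was 4.32 (adjusted p = 2.63e-06, 1 library against 1).

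The LPS response of Lcn2 was larger in GILZ KO than in GILZ TG by 2.74 on the log2 scale (SE 0.70, 95% interval 1.36 to 4.12), with adjusted p = 0.143 by edgeR over all genes. It passed the threshold without untreated GILZ TG library 3 (adjusted p = 0.0134), and without GILZ TG libraries 1 and 2 it was 0.85 (adjusted p = 0.706, 1 GILZ TG library per condition). Untreated Lcn2 was higher in GILZ TG than in WT by 2.40 (SE 0.64, adjusted p = 0.144) and 2.45 lower in GILZ KO than in the transgenic cells (SE 0.66, adjusted p = 0.0597), neither of them called by edgeR, while DESeq2 called the latter (adjusted p = 0.0230). Both were called without untreated GILZ TG library 3, at 2.85 and -2.91 (adjusted p = 0.00621 and 0.00464). In the 3 untreated GILZ TG libraries, the summed level of 12 neutrophil lineage markers was 204, 497 and 88.5 TPM, in the same order as Lcn2, in contrast to 42.4 to 80.5 TPM in untreated WT and 46.1 to 79.4 TPM in untreated GILZ KO. Of the 12 markers, 0 were at 0 in all 3 libraries of an untreated group, and 3 were under 1 TPM in all untreated GILZ TG libraries, compared to 6 in WT and 6 in GILZ KO. B cell markers had the same order in these libraries, with sums of 93.6, 158 and 36.1 TPM. The markers of a list did not all have the same sign in untreated GILZ TG against WT by edgeR. Of those named next, only Igkc was called (adjusted p = 0.0251 by edgeR). Of the B cell markers, Igkc and Ighm were higher (log2 fold change 6.27 and 0.66) and Cd79b was lower (-0.36). Of the neutrophil lineage markers, Ngp, S100a8 and S100a9 were higher (2.32, 2.36 and 2.46). Mmp8 was at -0.19 with an SE as large (0.19), so that a fall was not shown. With LPS the order differed, with neutrophil sums of 228, 526 and 98.9 TPM in GILZ TG beside 44.1, 92.2 and 61.7 TPM of Lcn2. The part of other cells in the result was not tested. Without GILZ TG libraries 1 and 2 the difference in untreated Lcn2 was 0.49 for GILZ TG against WT (adjusted p = 0.812) and -0.54 for GILZ KO against GILZ TG (adjusted p = 0.661), with 1 GILZ TG library, and the libraries left out are also those with the highest untreated Lcn2. In bulk RNA, fewer cells of a type and less RNA per cell cannot be told apart.

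**Figure D4:**
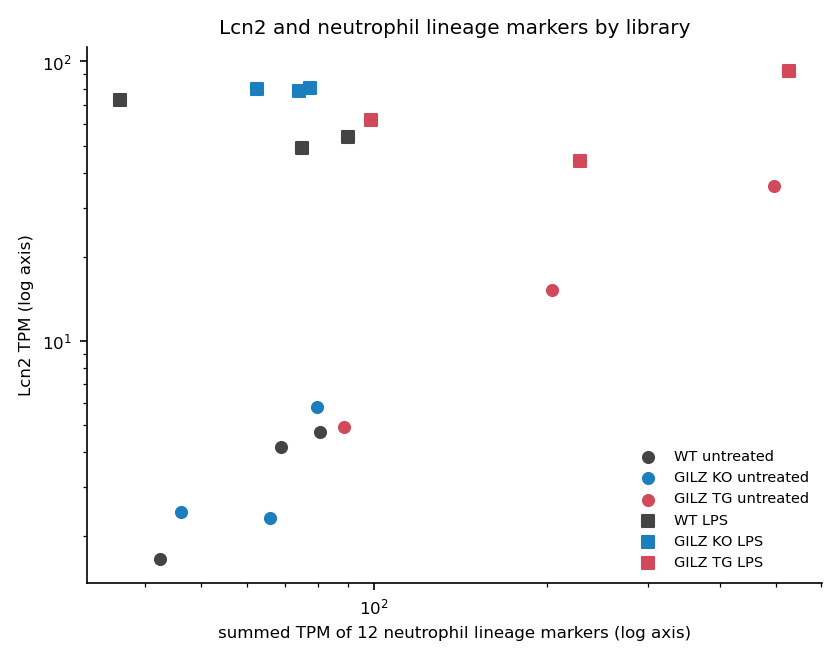
Lcn2 in TPM (vertical axis, log scale) against the summed TPM of 12 neutrophil lineage markers (horizontal axis, log scale) in the 18 libraries, coloured by genotype, untreated as circles and LPS as squares. GILZ TG libraries 1 and 2 lie to the right with sums of 204 to 526 TPM, and their untreated Lcn2, at 15.3 and 35.8 TPM, is the highest of the untreated libraries.

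The promoter window of Lcn2 in RefSeq (250 bases before to 50 after the start, GRCm38.p6) is shown around its match to the NF-kB motif, since this factor is known to be activated by LPS. The motif was taken as GGG and CC with any 5 bases between them and searched on both strands. The match, in capitals, reads on the strand opposite to the one printed, at chr2:32387822-32387851, minus strand:
Lcn2 promoter: ggtaaaggatGGACTACCCCgcccaacagg
The motif is short and held by 50.8% of all 32851 windows, and by 10 of the 12 windows of the 8 genes that had one. Slc40a1 and Slc11a2 had no window in this set, so their promoters were not searched. The antioxidant response element TGACNNNGC, searched on both strands, was in 12.4% of all windows and in 1 of the 12, of Ncoa4, where it overlaps the NF-kB motif. The loop CAGTGN was in the 50 transcribed bases of 7.08% of all windows and of 0 of the 12.

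Ireb2 and Aco1 encode the iron regulatory proteins, of which Aco1 also works as cytosolic aconitase when it holds an iron-sulfur cluster. Ireb2 (ENSMUSG00000032293, chr9:54863789-54912530) was at 32.4, 31.3 and 26.7 TPM in untreated WT and at 30.4, 29.6 and 30.9 TPM with LPS, with overlap in each genotype. Its log2 fold change was 0.64 in WT (SE 0.08, adjusted p = 2.75e-06), 0.50 in GILZ KO (adjusted p = 5.52e-05) and 0.50 in GILZ TG (adjusted p = 4.54e-05) by edgeR, but 0.01, -0.14 and -0.13 on log2(TPM + 1), where none was called. Relative to the median of all genes these were 0.52, 0.38 and 0.38. Aco1 (ENSMUSG00000028405, chr4:40143081-40198338) went from 32.4, 32.5 and 28.04 TPM to 20.7, 18.6 and 18.4 TPM in WT, with no overlap in any genotype. Its log2 fold change was -0.07, -0.03 and -0.11 in WT, GILZ KO and GILZ TG, none of them called, and -0.66, -0.64 and -0.72 on log2(TPM + 1), all called. The ratio of Ireb2 to Aco1 was between 0.768 and 1.00 in the untreated libraries and between 1.13 and 1.68 in the LPS libraries.

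Ncoa4, which directs ferritin to lysosomes (ENSMUSG00000056234, chr14:32159865-32179855), was at 148, 154 and 132 TPM in untreated WT and at 102, 88.4 and 105 TPM with LPS. Its untreated and LPS libraries did not overlap in any genotype. The log2 fold change was 0.09 in WT, 0.03 in GILZ KO and -0.05 in GILZ TG, none of them called, and on log2(TPM + 1) it was -0.55, -0.64 and -0.66, all called. Its counts were not whole in 17 libraries, as for genes whose reads are shared with other genes, and its values are less certain for that.

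Between genotypes, Tfrc was the only one of the 10 genes called by edgeR, and only in GILZ TG against WT with LPS. In GILZ KO against WT, 0 of the 10 genes were called in untreated cells (all genes 0.0951%, with 0.0475% higher and 0.0475% lower) and 0 with LPS (all genes 0.0822%, with 0.0411% higher and 0.0411% lower). At an unadjusted p under 0.05 there was 1 gene in each, and DESeq2 called 0 in both.

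Between GILZ KO and GILZ TG, 0 of the 10 genes were called by edgeR in untreated cells (all genes 4.94%, with 2.77% higher and 2.16% lower) and 0 with LPS (all genes 2.6%, with 1.22% higher and 1.38% lower). Here 6 and 2 genes had an unadjusted p under 0.05, and DESeq2 called Lcn2 in the first and Tfrc and Ncoa4 in the second. In GILZ TG against WT, 0 were called in untreated cells (all genes 0.642%, with 0.364% higher and 0.277% lower), with 3 at an unadjusted p under 0.05 and Tfrc called by DESeq2. With LPS 1 was called, as lower (all genes 0.46%, with 0.263% higher and 0.197% lower).

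TPM values did not overlap for 1 of the 10 genes in GILZ KO against WT untreated (all genes 17.2%) and for 2 with LPS (16.3%). In GILZ TG against WT there were 2 (14.9%) and 3 (15.2%), and in GILZ KO against GILZ TG 3 (28.7%) and 1 (20.6%). The median log2 fold change of the 10 genes was between -0.08 and 0.14 in these 6 comparisons, and that of all genes between -0.00 and 0.01. The comparisons share groups and are not independent of each other. The shares of all genes called rest on single libraries, as the number called in GILZ TG against WT with LPS was 56 and lay between 15 and 1067 when 1 library was left out.

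**Figure D5:**
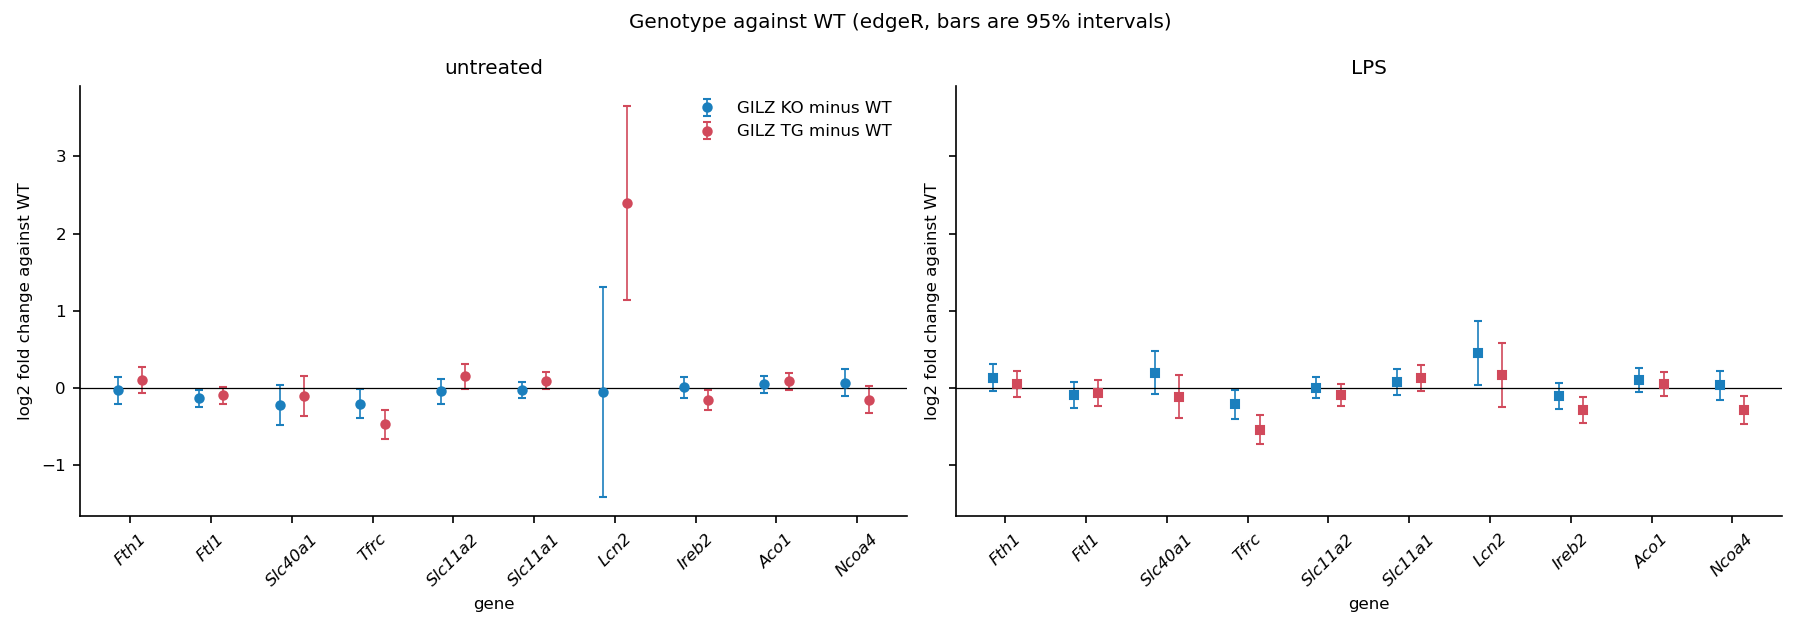
Log2 fold change of each gene against WT (vertical axis) with 95% intervals, GILZ KO in blue and GILZ TG in red, in untreated cells on the left and after LPS on the right. Tfrc in GILZ TG lies below 0 in both panels, at -0.47 and -0.54, and the intervals of untreated Lcn2 are the widest. The intervals use the normal approximation and are too narrow for 3 libraries per group.

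Tfrc was lower in GILZ TG than in WT, as the library values above show. With LPS the highest GILZ TG library was at 61.6 TPM and the lowest WT library at 67.9 TPM, and in untreated cells they were at 113.79 and 114.17 TPM, so that the groups did not overlap, narrowly so when untreated. The log2 fold change was -0.54 with LPS (SE 0.10, 95% interval -0.73 to -0.36, adjusted p = 0.0361) and -0.47 untreated (SE 0.10, 95% interval -0.66 to -0.28, adjusted p = 0.0695) by edgeR. DESeq2 called both, with adjusted p = 2.77e-05 and 3.87e-04. The call with LPS was lost without WT library 1 or 2 or GILZ TG library 1 or 2 (adjusted p = 0.0765, 0.154, 0.141 and 0.0608), and on log2(TPM + 1), where it was -0.46 (adjusted p = 0.136 by limma). Without GILZ TG libraries 1 and 2, which had the highest markers of other cells, it was -0.68 (1 GILZ TG library). GILZ KO had means between the others, with -0.21 to WT untreated and -0.22 with LPS (adjusted p = 0.532 and 0.515 by edgeR). Both genotypes thus had lower means than WT. Such differences from WT cannot be told apart from those in the Lyz2 locus.

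Of the other 9 genes, Ireb2 and Ncoa4 came nearest in GILZ TG with LPS. Ireb2 was at 23.2, 23.4 and 27.5 TPM in GILZ TG and at 30.4, 29.6 and 30.9 TPM in WT, with a log2 fold change of -0.29 (SE 0.09, adjusted p = 0.152). Ncoa4 was at 78.8, 86.3 and 86.6 TPM in GILZ TG and at 102, 88.4 and 105 TPM in WT, with -0.29 (SE 0.09, adjusted p = 0.183). Neither group overlapped with WT, and neither was called by edgeR unless GILZ TG library 3 was left out (-0.39 and -0.40, adjusted p = 0.00679 and 0.0108). Without GILZ TG libraries 1 and 2 the values were -0.10 and -0.09 (adjusted p = 0.877 and 0.923, 1 GILZ TG library). For Fth1, Ftl1, Slc40a1, Slc11a2, Slc11a1 and Aco1, the 95% intervals of GILZ KO and GILZ TG against WT, untreated and with LPS, all lay between -0.48 and 0.47. These intervals are too narrow, so that somewhat larger differences remain possible.

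In the LPS response itself 0 of the 10 genes differed between genotypes by edgeR, where 0.0152% of all genes did for GILZ KO against WT, 0.00759% for GILZ TG against WT and 0.121% for GILZ KO against GILZ TG (0.0532% higher and 0.0683% lower). At an unadjusted p under 0.05 these were 0, 2 and 2 of the 10 genes, and DESeq2 called 0 in each.

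The wider pathway of iron and heme was described by a list of 49 genes, of which 37 were tested in the fit of all libraries. With LPS in WT, 16 rose and 9 fell, in GILZ KO 16 and 10, and in GILZ TG 16 and 10, out of 37, where 68.6%, 68.5% and 68.7% of all genes were called. The median log2 fold change of the list was 0.27 in WT, 0.04 in GILZ KO and 0.24 in GILZ TG, beside -0.02 over all genes. Ceruloplasmin (Cp), the ferroxidase that works with ferroportin, rose most of the genes called in WT, from 1.39, 0.46 and 0.62 TPM to 76.5, 70.7 and 63.1 TPM (log2 fold change 7.26, SE 0.33, adjusted p = 2.31e-12 by edgeR). Steap4 and Flvcr2 followed but were rare, with counts of 0, 1 and 0 and of 3, 2 and 3 in untreated WT and of 43, 33 and 46 and of 27, 14 and 17 with LPS. The metal importer Slc39a14 rose by 1.25 and the mitochondrial iron importer Slc25a37 by 1.44 in WT.

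Heme oxygenase 1 (Hmox1), which frees iron from heme, went from 1940, 1760 and 1500 TPM to 941, 840 and 680 TPM in WT, with a log2 fold change of -0.44 (SE 0.12, adjusted p = 0.00439 by edgeR). It was -0.56 in GILZ TG (adjusted p = 0.000704) and -0.13 in GILZ KO (adjusted p = 0.373). In TPM, untreated and LPS libraries of GILZ KO did not overlap for each of 12 heme uptake and breakdown genes tested, Hmox1 among them. A difference in the Hmox1 response between GILZ KO and WT was not called by edgeR, so that a weaker fall in GILZ KO was not shown. The heme transporter Slc48a1 fell in each genotype, by 0.44 in WT. Fbxl5, which marks Ireb2 for degradation, rose by 0.46 in WT (adjusted p = 0.000621) on TMM-normalized counts, but was at -0.16 on log2(TPM + 1), where it was not called. Hamp, the gene of hepcidin that removes ferroportin from the membrane, was too rare to be tested, with no count in the 9 untreated libraries and 0 to 9 counts in the LPS libraries, 8 of them above 0.

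Between genotypes, few genes of the list were called. GILZ KO against WT gave 0 of 34 untreated and 0 of 35 with LPS. Transferrin (Trf), the ligand of Tfrc, was at 73.3, 82.7 and 55.0 TPM in untreated GILZ TG and at 47.6, 45.8 and 32.9 TPM in WT. With LPS it was at 58.8, 72.4 and 43.7 TPM in GILZ TG and at 36.9, 34.8 and 27.0 TPM in WT, so that the groups did not overlap in either condition. It was called as higher in GILZ TG than in WT with LPS (log2 fold change 0.76, SE 0.14, adjusted p = 0.0423 by edgeR). In untreated cells that difference was 0.68 and was not called by edgeR. Trf was lower in GILZ KO than in the transgenic cells (-0.79 untreated, adjusted p = 0.0178, and -0.83 with LPS, adjusted p = 0.0146, by edgeR). Its counts were not whole, as for genes that share reads. In GILZ TG it was lowest in library 3, where stromal markers summed to 9.75 TPM untreated, compared to 101 and 115 TPM in libraries 1 and 2, and the part of these cells was not tested. Steap3, the endosomal reductase that prepares iron for Slc11a2, was lower in untreated GILZ TG than in WT (46.6 ± 2.22 and 55.5 ± 1.92 TPM, SD, n = 3, log2 fold change -0.28, adjusted p = 0.0382 by edgeR).

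Without LPS, 3 of 34 list genes were higher and 4 lower in GILZ KO compared to GILZ TG, where 2.77% and 2.16% of all genes were. Lactoferrin (Ltf), itself a neutrophil marker, was at 13.5, 33.6 and 6.07 TPM in GILZ TG and at 3.54, 4.11 and 3.13 TPM in GILZ KO (log2 fold change -2.34, adjusted p = 0.0437 by edgeR), and the part of such cells in it was not tested. Alas1, the first enzyme of heme synthesis, was lower in GILZ KO by 0.46 (adjusted p = 0.0105), which rests on 151 ± 14.2 and 202 ± 9.9 TPM. With LPS 2 of 35 list genes were lower in GILZ KO (1.38% of all genes), namely Trf and the mitochondrial iron importer Slc25a28 (-0.29, adjusted p = 0.0474).

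The genes whose pattern over the 18 libraries was most like that of Slc40a1 and Tfrc were found among 13169 genes by the root mean square difference of centred log2(TPM + 1). For Slc40a1 these were Ercc6, Trmt10c and Aatk, at 0.14 each, where the root mean square of Slc40a1 around its own mean was 0.87. For Tfrc they were Hlcs, Sept8 and Dido1, at 0.14, 0.14 and 0.15, with 0.52 for Tfrc itself. Trmt10c takes part in the processing of mitochondrial tRNA. All 18 libraries enter this measure, so that the difference between untreated and LPS libraries is part of it.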

How the data were processed

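RNA of BMMs (3 genotypes, untreated or LPS, 3 libraries per group, 18 in all) had been sequenced by the authors as poly(A) libraries with single reads and processed against mouse build GRCm38. The deposited files hold estimated counts per gene (expected counts, unfiltered) and TPM values, which the authors computed per library. The name of the quantifier is not given in the sources used here. Deposited comparison tables (DESeq2 1.40.2 per the labels) hold fold changes and p-values, which were not used, and gene symbols, which were. Groups were taken from the labels. The libraries of a group are independent replicates per the study, and whether untreated and LPS libraries come from the same animals is not said.

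Expected counts were rounded, filtered with filterByExpr, TMM-normalized and tested with edgeR 4.0.16 (quasi-likelihood, Benjamini-Hochberg over all genes, threshold 0.05) in R 4.3.3. Genotypes were compared in fits of the 9 libraries of a condition (12621 genes untreated, 12164 with LPS), and LPS effects and their differences between genotypes in a fit of all 18 (13169 genes). The 95% intervals were taken from the SE by the normal approximation and are too narrow. That of Lcn2 in GILZ KO against WT with LPS, 0.03 to 0.86, left out 0 at an unadjusted p = 0.0600 by edgeR. Alternatives were DESeq2 1.42.0, limma 3.58.1 on log2(TPM + 1) and log2(TPM + 0.1), DESeq2 size factors, no filter, other sets of libraries, a replicate block and leaving out each library. Leaving out GILZ TG libraries 1 and 2 was added after seeing the data. On simulated counts for GILZ KO against WT untreated (12522 genes, 200 changed), edgeR recovered 100% with 4.76% false calls. DESeq2 had 9.91% false calls and limma 5.66%. The 200 genes had a median absolute log2 fold change of 1.58 by edgeR. Recovery of smaller differences, which most of those between genotypes here are, was not tested.

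The 10 genes and all lists were chosen with earlier results of these data known. Named were all 10 genes, Tsc22d3, Lyz2, 7 fixed genes of the iron and heme list (Hmox1, Slc48a1, Cp, Slc39a14, Slc25a37, Fbxl5, Hamp), the 3 list genes with the largest change among those called per comparison, and for Slc40a1, Tfrc and Lcn2 the 3 genes nearest in pattern, of which those for Lcn2 are not reported here. Same-numbered libraries of different genotypes correlated above 0.1 in 3 of 18 pairs (-0.14 to 0.26) and untreated with LPS libraries in 1 of 3 pairs of WT, 0 of 3 of GILZ KO and 3 of 3 of GILZ TG (0.27 to 0.60). The numbers thus appear to pair the libraries of GILZ TG across LPS. The values reported are nevertheless from fits without pairs in every genotype, unless the replicate block is named. In GILZ TG the block changed no call among the 10 genes with LPS, and Tfrc then had an adjusted p = 9.22e-05 by edgeR. Total counts were 14583055 to 38557029 per library, and precision is lowest for rare genes such as untreated Lcn2. Stem-loops were searched in GENCODE transcripts of GRCm38, promoters in RefSeq windows of GRCm38.p6. Figures were drawn with Matplotlib 3.10.9.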

Additional observations from a re-analysis of the deposited data

Results flagged for a closer look

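Bach1, a heme-sensing repressor and a gene of the wider iron and heme list, was the only gene among the 10 iron genes and the 49 list genes whose LPS response differed between genotypes by edgeR's test of the difference itself. It was named after its values were seen. Bach1 was at 32.8, 33.9 and 34.8 TPM in untreated GILZ KO and at 29.1, 32.0 and 26.9 TPM with LPS, and in GILZ TG at 27.7, 25.7 and 26.4 TPM and 38.8, 42.0 and 34.1 TPM. The levels in TPM were thus lower with LPS in GILZ KO, with no overlap, and higher in GILZ TG. On TMM-normalized counts the log2 fold change with LPS was 0.46 in GILZ KO and 1.14 in GILZ TG, so that the direction in GILZ KO depends on the scale. The responses differed by -0.68 on the log2 scale (SE 0.12, adjusted p = 0.0271 by edgeR and 2.72e-04 by DESeq2). The value lay between -0.74 and -0.65 when 1 library was left out, but edgeR called it in 3 of these 12 fits only (adjusted p = 0.0166 to 0.125), and limma on log2(TPM + 1) did not call it (adjusted p = 0.0570). Without GILZ TG libraries 1 and 2 it was -0.56 (adjusted p = 0.531, 1 GILZ TG library per condition). The response of GILZ KO against WT differed by -0.53 (adjusted p = 0.382 by edgeR).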

How the results depend on the processing

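The numbers of genes called among the 10 kept within 1.5 times under each alternative for LPS in each genotype, for GILZ KO against WT in both conditions and for the LPS responses of GILZ KO and GILZ TG against WT. For GILZ TG against WT untreated (0 by edgeR), DESeq2, all 18 libraries and the replicate block called 1 each and no filter called 2, and leaving out single libraries gave 0 to 2. For GILZ KO against GILZ TG untreated (0), DESeq2, no filter, all 18 libraries and the replicate block called 1 each, with 0 to 2 without single libraries. For GILZ TG against WT with LPS (1), limma with either pseudocount, the 6 libraries alone and the fit without GILZ TG libraries 1 and 2 called 0, with 0 to 3 without single libraries. For GILZ KO against GILZ TG with LPS (0), DESeq2 and no filter called 2 each, with 0 to 2 without single libraries. For the LPS response of GILZ KO against GILZ TG (0), no filter called 1, with 0 to 1 without single libraries. In each of these ranges the highest count came without GILZ TG library 3 of the condition concerned (untreated for the response), and the cause was not tested. With LPS, log2(TPM + 1) turned the sign of Fth1 in WT (-0.0070) and GILZ TG (-0.0729), of Slc11a1 in WT, GILZ KO and GILZ TG (-0.66, -0.55 and -0.62), of Ncoa4 in WT and GILZ KO (-0.55 and -0.64) and of Ireb2 in GILZ KO and GILZ TG (-0.14 and -0.13), and log2(TPM + 0.1) gave -0.0070, -0.0729, -0.66, -0.55, -0.62, -0.55, -0.64, -0.14 and -0.13 for the same. With LPS the median of all genes was -0.52 to -0.51 on log2(TPM + 1) and -0.02 on TMM-normalized counts. With the replicate block, untreated Lcn2 was called in GILZ TG against WT (2.19, adjusted p = 0.0312 by edgeR) and GILZ KO against GILZ TG (-2.26, adjusted p = 0.0138). Between genotypes this block joins libraries of different animals that share only a number, so that these calls carry little weight. Tfrc was called with LPS in WT with the block (-0.21, adjusted p = 0.00107 by edgeR). With it, 7 genes were called with LPS in WT and 7 and 6 in GILZ KO and GILZ TG. Of the values of the 10 genes under the alternatives, 1636 kept sign and side of the threshold and 110 turned sign with no call changed, 44 gained a call, 32 lost one, and the 18 above turned sign with a call on one side. Over all genes, leaving out single libraries moved the number called from 623 to between 79 and 1306 for GILZ KO against GILZ TG untreated, from 316 to between 24 and 1403 with LPS, from 81 to between 16 and 665 for GILZ TG against WT untreated and from 56 to between 15 and 1067 with LPS, with the highest number without GILZ TG library 3 in each.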
